A study of Mus musculus with 8 samples.

Results

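The 10 genes described here lie beside Erbb2 on mouse chromosome 11, on the side that runs from Psmd3 to Top2a: Psmd3, Med24, Thra, Nr1d1, Msl1, Casc3, Wipf2, Cdc6, Rara and Top2a. They were chosen by this position and with tumour-to-tumour differences of these data already known, and each was represented by the probe that carries its symbol alone and has the highest mean over all 8 tumours. Of the 10 genes, 9 have such a probe, out of 22180 genes on the array, and all 9 were bright enough to be among the 16635 genes tested. Casc3 has no probe of its own: both probes that carry its name also carry Gm12359, and it is given no value here.

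The tumours were primary mammary tumours of transgenic FVB mice, 1 array each. In 4 of them the genotype was NeuNT/H1074R, as the labels spell it, meaning the Neu transgene together with the mutation of the PI3K catalytic subunit p110α that the study's title writes as H1047R. In the other 4 the genotype was NeuNT, the same transgene with p110α unmutated. NeuNT, a form of the rodent ErbB2 receptor, was thus present in every tumour, and no tumour-free gland is part of the comparison. The promoter driving the transgenes, the age of the animals and whether each tumour came from its own mouse are not stated in the labels, so each p-value reflects only how these tumours vary, which may be technical in part.

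In human breast cancer the ERBB2 gene is often present in extra copies, and genes that lie beside it on the chromosome can be carried along in the same amplified stretch. How far that stretch reaches differs from tumour to tumour, and TOP2A, which encodes the target of anthracycline drugs, lies near ERBB2 and is included in some cases and not in others. The mouse genes lie in a similar order. RNA levels alone do not measure copy number, and no DNA measurement was used here.

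Of the 9 measured genes, 8 stood well above the other tumours in NeuNT/H1074R replicate 3 and 5 did so in NeuNT/H1074R replicate 1, and the stretch of high genes ended at different places in the 2 tumours. For NeuNT/H1074R replicate 1 it took in Psmd3, Med24, Thra, Msl1 and Wipf2 and stopped before Cdc6. For NeuNT/H1074R replicate 3 it went on through Cdc6 and Rara to Top2a. Nr1d1, in the middle of the stretch, did not reach a doubling of signal in either tumour. Over the other 6 tumours, NeuNT/H1074R replicates 2 and 4 and all 4 NeuNT tumours, the range was 0.51 for Psmd3, 0.36 for Msl1 and 0.45 for Wipf2, and between 0.84 (Thra) and 2.0 (Nr1d1) for the other 6 genes. The 9 luminal epithelial markers, among them Krt8, Krt18 and Epcam, averaged log2 9.44 to 10.21 in NeuNT/H1074R tumours and 9.76 to 9.90 in NeuNT tumours. Single markers could differ more. Krt19 read 11.5, 9.27, 11.52 and 7.51 in NeuNT/H1074R replicates 1 to 4. In NeuNT replicates 1 to 4 it read 8.85, 10.95, 5.37 and 9.26. Cldn4 ran from 8.18 in NeuNT/H1074R replicate 4 to 11.33 in NeuNT replicate 3. In bulk tumour RNA, fewer cells of a type and less RNA per cell cannot be told apart.

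**Figure D1:**
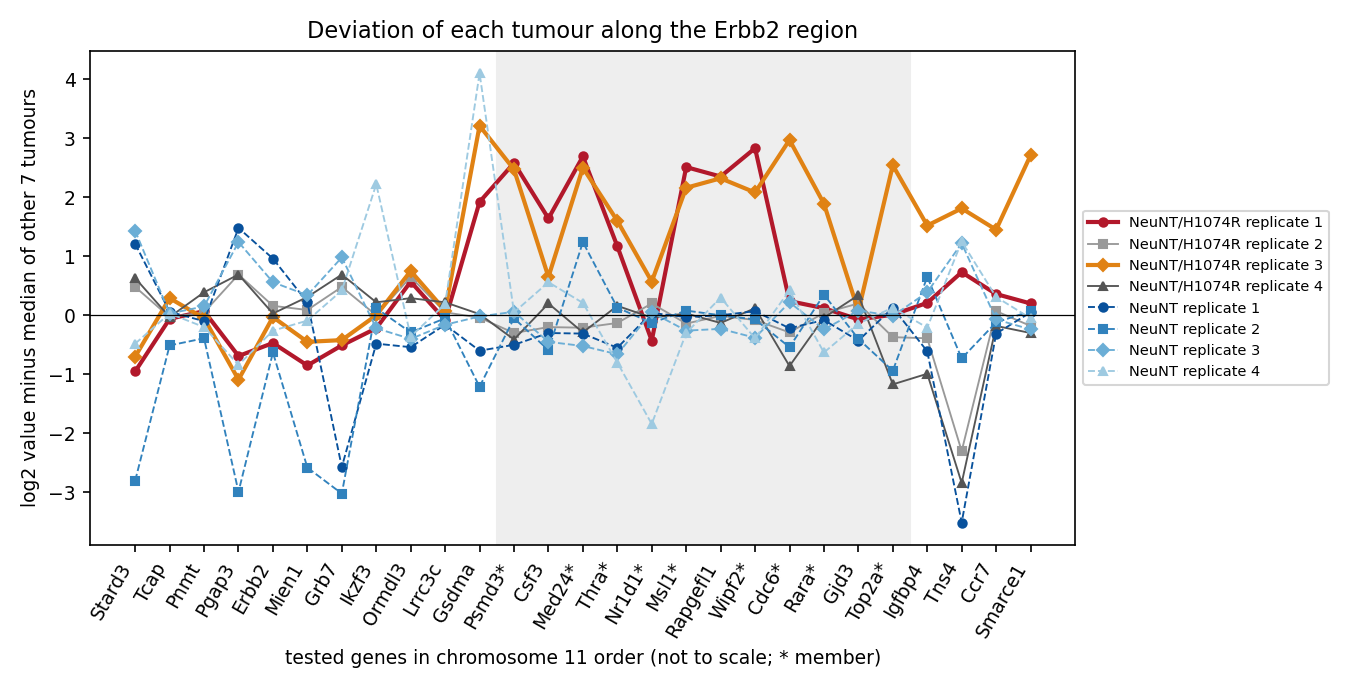
Deviation of each tumour from the median of the other 7 (log2, vertical axis) for the tested genes in chromosome 11 order from Stard3 to Smarce1 (horizontal axis, not to scale), 1 line per tumour, solid for NeuNT/H1074R and dashed for NeuNT, with the stretch from Psmd3 to Top2a shaded and its members starred. NeuNT/H1074R replicate 1 drops from 2.83 at Wipf2 to 0.24 at Cdc6, while NeuNT/H1074R replicate 3 stands at 2.97 at Cdc6 and 2.54 at Top2a.

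Each tumour was set against the median of the other 7, and the result is called its deviation, in log2 units, where 1 is a doubling of signal. A deviation of at least 1 was found for 5 of the 9 members in NeuNT/H1074R replicate 1, where 2.02% of all tested genes did. The count was 8 of 9 in NeuNT/H1074R replicate 3, where 2.01% of all tested genes did. The members were picked with these differences in view, so the shares are given as a description. NeuNT/H1074R replicates 1 to 4 had median deviations over the members of 1.17, −0.14, 2.16 and −0.04, against −0.08, −0.05, −0.24 and −0.30 in NeuNT replicates 1 to 4. Over all tested genes the median lay between −0.02 and 0.02 in every tumour. Among the remaining 6 tumours, 1 member in each of 3 tumours passed 1 in either direction. They were Med24 in NeuNT replicate 2 (higher; 4.44% of tested genes), Top2a in NeuNT/H1074R replicate 4 (lower; 2.41%) and Nr1d1 in NeuNT replicate 4 (lower; 1.72%). No member was at −1 or below in NeuNT/H1074R replicates 1 and 3, where 1.27% and 1.47% of tested genes were. The other counts at 1 or more were 0 in NeuNT/H1074R replicate 2 (1.29% of tested genes), NeuNT/H1074R replicate 4 (1.51%), NeuNT replicate 1 (1.56%), NeuNT replicate 3 (2.65%) and NeuNT replicate 4 (3.55%). The other counts at −1 or below were 0 in NeuNT/H1074R replicate 2 (1.15%), NeuNT replicate 1 (1.32%), NeuNT replicate 2 (1.87%) and NeuNT replicate 3 (1.44%).

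Psmd3, a non-ATPase subunit of the regulatory cap of the proteasome, had log2 values of 10.95, 8.12, 10.84 and 8.01 in NeuNT/H1074R replicates 1 to 4, against 7.91, 8.37, 8.43 and 8.42 in NeuNT replicates 1 to 4. NeuNT/H1074R replicates 1 and 3 stood 2.52 and 2.41 above the highest of the other 6 tumours, which spanned only 0.51. In linear terms the signal was 5.98-fold and 5.55-fold that of the median of the other tumours. NeuNT/H1074R replicates 2 and 4 lay within the range of the NeuNT tumours.

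Med24, a subunit of the Mediator complex that links transcription factors to RNA polymerase II, read 10.42, 7.73, 10.23 and 7.65 in NeuNT/H1074R replicates 1 to 4, against 7.64, 8.98, 7.42 and 7.95 in NeuNT replicates 1 to 4. The same 2 tumours were highest, by 1.44 and 1.26 over the next one, NeuNT replicate 2. That tumour had a deviation of 1.24 for Med24 while its neighbour Psmd3 stood at −0.05 and Thra at 0.13. A dimmer probe of Med24 gave deviations of 2.54 and 3.04 in NeuNT/H1074R replicates 1 and 3 and 0.66 in NeuNT replicate 2.

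Thra, the α receptor for thyroid hormone, had a smaller excess. It read 7.95, 6.78, 8.37 and 6.94 in NeuNT/H1074R replicates 1 to 4, against 6.35, 6.90, 6.24 and 6.10 in NeuNT replicates 1 to 4. All NeuNT/H1074R tumours but replicate 2 lay above all NeuNT tumours, and replicate 2 lay just under NeuNT replicate 2. NeuNT/H1074R replicates 1 and 3 had Thra deviations of 1.17 and 1.60.

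Nr1d1, which encodes the circadian repressor REV-ERBα, broke the pattern of its neighbours. It read 9.15, 9.75, 10.12 and 9.55 in NeuNT/H1074R replicates 1 to 4, against 9.59, 9.46, 9.60 and 7.75 in NeuNT replicates 1 to 4. NeuNT/H1074R replicate 1, which stood highest of all tumours for Msl1 next to it, was the second lowest for Nr1d1, with a deviation of −0.43. NeuNT/H1074R replicate 3 was the highest, but only by 0.37, with a deviation of 0.57. Thra and Nr1d1 are transcribed towards each other and overlap at their ends, and how well their probes keep the transcripts apart is not known from the labels.

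Msl1, a scaffold of the MSL complex that acetylates histone H4, read 10.10, 7.47, 9.74 and 7.62 in NeuNT/H1074R replicates 1 to 4, against 7.59, 7.67, 7.35 and 7.32 in NeuNT replicates 1 to 4. The other 6 tumours spanned just 0.36, and NeuNT/H1074R replicates 1 and 3 lay 2.43 and 2.07 above the highest of them. Wipf2, a WASP-interacting protein that acts on actin filaments, read 10.51, 7.66, 9.76 and 7.80 in NeuNT/H1074R replicates 1 to 4, against 7.74, 7.68, 7.36 and 7.35 in NeuNT replicates 1 to 4. Its 2 high tumours lay 2.71 and 1.96 above the next one, and NeuNT/H1074R replicate 1 had a signal 7.13-fold that of the median of the others.

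The 3 genes beyond Wipf2 were high in 1 tumour only. Cdc6, which loads the replicative helicase onto origins of replication, read 6.17, 5.87, 8.91 and 5.30 in NeuNT/H1074R replicates 1 to 4, against 5.94, 5.62, 6.15 and 6.36 in NeuNT replicates 1 to 4. NeuNT/H1074R replicate 3 stood 2.55 above every other tumour, while NeuNT/H1074R replicate 1 lay among the NeuNT tumours. Rara, the α receptor for retinoic acid, read 7.68, 7.60, 9.46 and 7.56 in NeuNT/H1074R replicates 1 to 4, against 7.53, 7.91, 7.36 and 6.97 in NeuNT replicates 1 to 4. Top2a, the DNA topoisomerase that untangles chromosomes before mitosis, read 7.69, 7.31, 10.21 and 6.51 in NeuNT/H1074R replicates 1 to 4, against 7.80, 6.74, 7.67 and 7.80 in NeuNT replicates 1 to 4. For Rara and Top2a the single high tumour was again NeuNT/H1074R replicate 3, by 1.55 and 2.41 over the next one. A further pair of probes that carry Top2a together with Taf1d were not used.

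**Figure D2:**
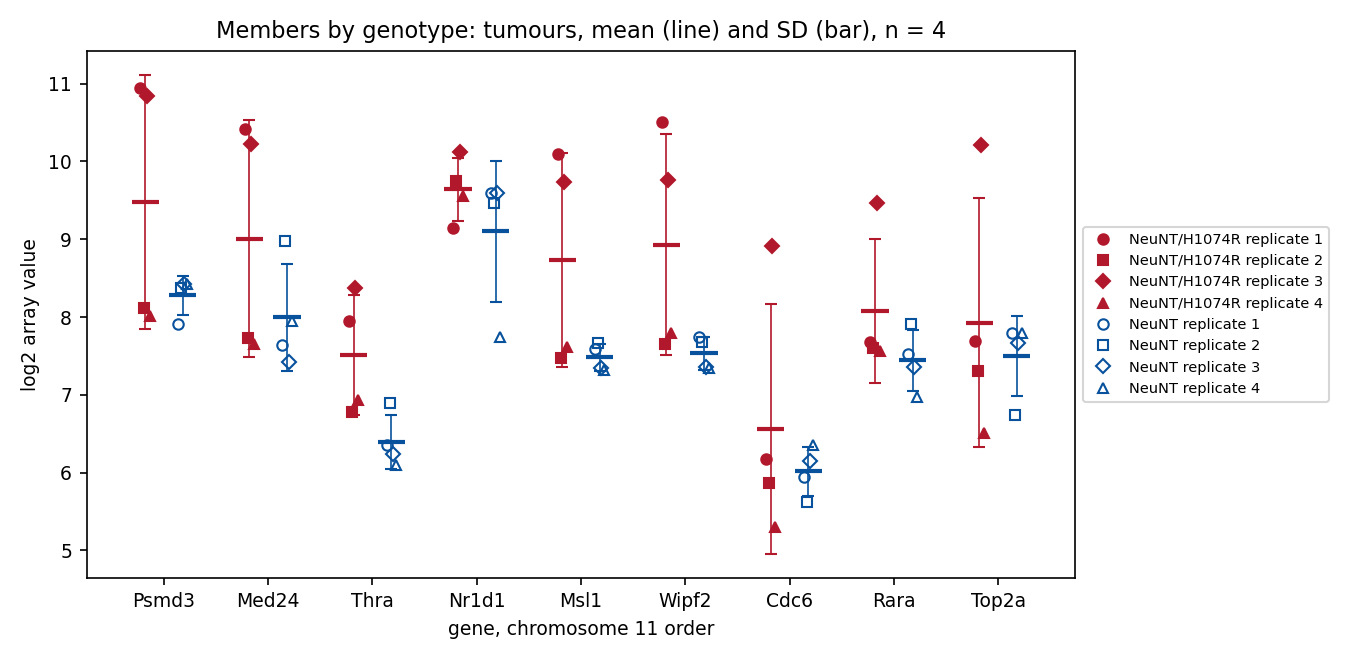
Log2 array value (vertical axis) of the 9 measured members in chromosome order (horizontal axis), with NeuNT/H1074R tumours as filled red symbols left of NeuNT tumours as open blue symbols, and the mean and SD of each genotype (n = 4) as line and bar. The wide bars of NeuNT/H1074R come from replicates 1 (circles) and 3 (diamonds) for Psmd3, Med24, Thra, Msl1 and Wipf2, and from replicate 3 alone for Cdc6, Rara and Top2a.

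A step was counted where the deviation changed by at least 0.5 between measured members that follow each other, 8 places in each tumour. Some of these places skip tested genes that are not members, such as Csf3, Rapgefl1 and Gjd3. The shares of pairs given beside the steps count tested genes directly next to each other, so the 2 are not fully alike. NeuNT/H1074R replicate 1 had 4 steps (21.6% of all neighbouring gene pairs of the genome passed the same size in that tumour): −1.52 from Med24 to Thra, −1.61 from Thra to Nr1d1, 2.95 from Nr1d1 to Msl1 and −2.60 from Wipf2 to Cdc6. The first 3 mark the lower Thra and Nr1d1 inside the stretch, and the last marks its end, after which Cdc6, Rara and Top2a lay between 0.01 and 0.24. NeuNT/H1074R replicate 3 had 6 steps (26.5% of pairs): −0.91 to Thra, −1.02 to Nr1d1, 1.58 to Msl1, 0.89 to Cdc6, −1.07 to Rara and 0.65 to Top2a. None of these brought the tumour back to the level of the others at a member. Its lowest deviation over the members was 0.57, at Nr1d1, and its next lowest 1.60, at Thra. Gjd3, which lies between Rara and Top2a and is not a member, stood at 0.07. Set side by side, NeuNT/H1074R replicate 3 minus replicate 1 was −0.11 for Psmd3, −0.19 for Med24, −0.36 for Msl1 and −0.75 for Wipf2, and then 2.73 for Cdc6, 1.78 for Rara and 2.53 for Top2a.

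All steps in the other 6 tumours were smaller than the drop after Wipf2, at most 1.54 in size. NeuNT/H1074R replicate 2 had 0 (23.2% of pairs) and replicate 4 had 3 (29.1%), all among Wipf2, Cdc6, Rara and Top2a. NeuNT replicate 1 had 1 (25.3%), from Thra to Nr1d1, with the 3 members before it between −0.55 and −0.31 and the 6 after it between −0.22 and 0.13. Of the other NeuNT tumours, replicate 2 had 4 (33.3%), replicate 3 had 3 (28.7%) and replicate 4 had 6 (30.4%). In NeuNT replicate 2 they surrounded Med24 and Rara, in NeuNT replicate 3 they were all under 0.8 in size, and in NeuNT replicate 4 the lowest point was Nr1d1 at −1.84. When each tumour was divided at the place where the medians of its sides differed most, with at least 2 members on each side, the change was −2.45 in NeuNT/H1074R replicate 1 and between −0.85 and 0.51 in the other 7. By that rule the place in NeuNT/H1074R replicate 1 fell between Cdc6 and Rara, 1 gene later than the largest single drop. Changes of at least 1 numbered 4, 0, 3 and 1 in NeuNT/H1074R replicates 1 to 4 (5.96%, 5.02%, 6.68% and 8.3% of pairs), against 0, 3, 0 and 4 in NeuNT replicates 1 to 4 (6.15%, 12.3%, 7.68% and 10.1% of pairs).

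Wipf2 and Cdc6 are the genes on either side of the drop in NeuNT/H1074R replicate 1. Of the 10 members, 6 have a promoter entry in RefSeq (GRCm38.p6), and the sequences of Wipf2, Cdc6 and Top2a are shown because the first 2 flank the drop and the last 2 are genes whose transcription follows the cell cycle. Each runs from 250 bases before the start of transcription to 50 bases after it, on the gene's own strand. Capitals mark matches, on either strand, to the CCAAT box (CCAAT), the cell cycle homology region (TTTGAA), E2F cores (TTCCCGC or TTTGGCGC), the E-box (CACGTG) or a nuclear receptor half-site (AGGTCA). None of these matches overlaps another.
Wipf2 (chr11:98863348-98863647, plus strand): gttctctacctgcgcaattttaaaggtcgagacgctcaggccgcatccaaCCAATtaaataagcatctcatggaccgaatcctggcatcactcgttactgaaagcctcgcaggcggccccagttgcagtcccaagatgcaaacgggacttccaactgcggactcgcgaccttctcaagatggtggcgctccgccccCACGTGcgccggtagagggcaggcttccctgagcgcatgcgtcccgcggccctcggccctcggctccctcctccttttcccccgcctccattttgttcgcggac
Cdc6 (chr11:98907901-98908200, plus strand): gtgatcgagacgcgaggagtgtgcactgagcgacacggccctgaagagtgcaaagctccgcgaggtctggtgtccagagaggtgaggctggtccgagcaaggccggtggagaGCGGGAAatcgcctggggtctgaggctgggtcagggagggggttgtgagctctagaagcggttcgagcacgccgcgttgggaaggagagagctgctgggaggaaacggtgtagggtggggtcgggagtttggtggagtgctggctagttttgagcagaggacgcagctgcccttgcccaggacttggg
Top2a (chr11:99024140-99024439, minus strand): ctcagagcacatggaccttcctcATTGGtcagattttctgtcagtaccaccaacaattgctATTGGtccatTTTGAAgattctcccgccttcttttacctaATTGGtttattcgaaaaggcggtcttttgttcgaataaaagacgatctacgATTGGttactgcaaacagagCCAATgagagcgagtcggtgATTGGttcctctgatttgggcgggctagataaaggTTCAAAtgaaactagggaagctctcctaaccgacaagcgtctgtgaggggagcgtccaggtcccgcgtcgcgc
The Wipf2 window holds 1 CCAAT box and 1 E-box, and the Cdc6 window holds 1 E2F core, GCGGGAA read on the gene's strand. The Top2a window holds 6 CCAAT boxes, of which 5 lie in reverse orientation, and 2 cell cycle homology regions. Over the 32851 promoter windows of the same length, 37.4% hold a CCAAT box, 0.0791% hold at least 6, 17.9% hold TTTGAA, 4.6% hold TTCCCGC, 0.514% hold TTTGGCGC, 7.15% hold the E-box and 16.3% the half-site. A match of letters is a description and not a measured binding site.

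The genes next to the members, which are not members themselves, were set against the other tumours in the same way. A deviation cannot show a rise that most tumours share. On the Erbb2 side, Lrrc3c had deviations of −0.08 and 0.08 in NeuNT/H1074R replicates 1 and 3. Ormdl3, a regulator of sphingolipid synthesis, stood at 0.57 and 0.75 there, and at 0.65 and 0.29 in NeuNT/H1074R replicates 2 and 4. In the NeuNT tumours Ormdl3 lay between −0.54 and −0.29. Erbb2 itself read 8.89, 9.49, 9.33 and 9.36 in NeuNT/H1074R replicates 1 to 4, against 10.28, 8.73, 9.89 and 9.10 in NeuNT replicates 1 to 4. Whether its probe also reads the Neu transgene is not known from the labels. Erbb2 was thus lowest of the NeuNT/H1074R tumours in replicate 1. Genes near it, such as Grb7 (−0.51 and −0.42) and Stard3 (−0.95 and −0.70), were below the median of the other tumours in NeuNT/H1074R replicates 1 and 3. Grb7 read 10.99, 11.55, 11.08 and 11.76 in NeuNT/H1074R replicates 1 to 4. In NeuNT replicates 1 to 4 it read 8.93, 8.48, 12.06 and 11.5. Stard3 read 9.96, 10.92, 10.21 and 11.07 in NeuNT/H1074R replicates 1 to 4. In NeuNT replicates 1 to 4 it read 11.64, 8.12, 11.87 and 10.44. Gsdma, a skin gasdermin that directly precedes Psmd3, stood at 1.92 and 3.21, but its highest value, 9.24, was in NeuNT replicate 4.

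Within the stretch, Rapgefl1 between Msl1 and Wipf2 followed them, with deviations of 2.35 and 2.32 in NeuNT/H1074R replicates 1 and 3, and Csf3, the gene of a granulocyte growth factor between Psmd3 and Med24, stood at 1.64 and 0.65. Gjd3, a gap junction gene between Rara and Top2a, did not follow them, at −0.07 and 0.07. Past Top2a, NeuNT/H1074R replicate 3 stayed high at Igfbp4 (1.52), Tns4 (1.81), Ccr7 (1.45) and Smarce1, a chromatin remodelling subunit (2.71). In NeuNT/H1074R replicate 1 the same 4 genes stood at 0.21, 0.73, 0.36 and 0.20. Tns4 was also high in NeuNT replicates 3 and 4, at 1.22 and 1.25. Smarce1 read 6.84, 6.51, 9.35 and 6.39 in NeuNT/H1074R replicates 1 to 4, against 6.69, 6.71, 6.45 and 6.64 in NeuNT replicates 1 to 4, a spread of the other tumours that sets NeuNT/H1074R replicate 3 apart.

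For the members other than Nr1d1 that were high in a tumour, the other genes of the same complex or process were all lower there. The other 19 measured subunits of the proteasome cap had deviations between −0.36 and 0.33 in NeuNT/H1074R replicate 1, where Psmd3 stood at 2.58. In replicate 3 they lay between −0.21 and 0.23, and Psmd3 at 2.47. The other 29 genes of Mediator and its kinase module reached at most 0.41 and 0.57 in these tumours, against 2.69 and 2.5 for Med24. The MSL partners Msl2, Msl3 and Kat8 lay between −0.32 and 0.04 in both, against 2.51 and 2.16 for Msl1, and 9 WASP-related and Arp2/3 genes reached at most 0.40 and 0.03, against 2.83 and 2.08 for Wipf2. Among 6 other thyroid hormone and retinoid receptors the highest deviations were 0.27 and 0.72, against 1.17 and 1.60 for Thra and 0.12 and 1.89 for Rara. For Nr1d1 it was different: 8 of 16 other clock genes were at or above it in NeuNT/H1074R replicate 1, where it stood at −0.43 and so did their median. In NeuNT/H1074R replicate 3, Nr1d1 stood at 0.57 with a clock median of −0.06, and 1 of the 16, Per1, was above it. Among 14 retinoid and thyroid hormone response genes, which are targets and not partners, the medians were 0.20 and −0.25 in NeuNT/H1074R replicates 1 and 3, but Thrsp, a lipogenic gene, stood at 2.28 and 2.91 and Stra6, a retinol transporter, at 3.41 and 4.42. Both are above Thra in these tumours, and Stra6 was also high in NeuNT replicates 3 and 4, at 4.64 and 4.53. The Mediator list includes Med1, which also lies near Erbb2 and had deviations of −2.65 in NeuNT/H1074R replicate 4 and −2.30 in NeuNT replicate 2.

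**Figure D3:**
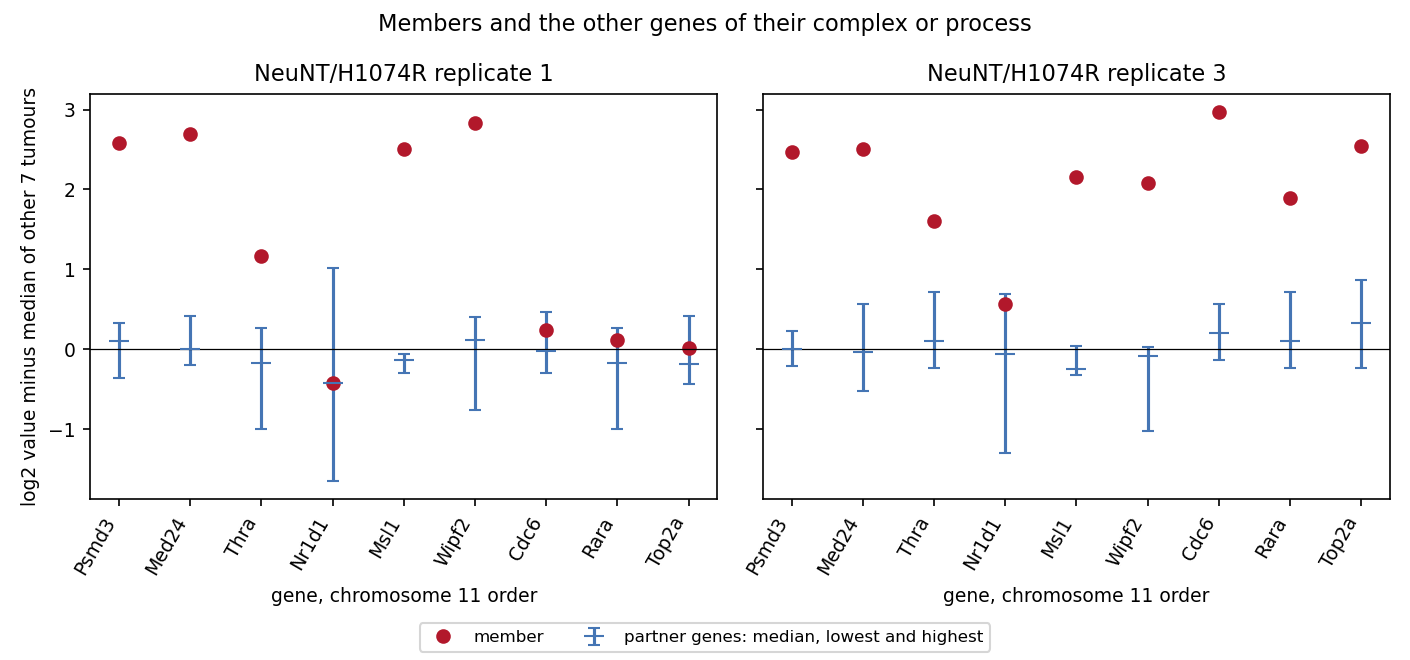
Deviation from the median of the other 7 tumours (log2, vertical axis) in NeuNT/H1074R replicate 1 (left) and replicate 3 (right) for each member (red point) and for the other genes of its complex or process (blue, median with the lowest and highest). Psmd3, Med24, Thra, Msl1 and Wipf2 lie above all their partners in both tumours, Cdc6, Rara and Top2a do so only in replicate 3, and Nr1d1 lies within its partners' range in both.

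Cdc6 and Top2a are also cell cycle genes, and outside NeuNT/H1074R replicate 3 they lay nearer to the genes of their process. Top2a had a deviation of −1.17 in NeuNT/H1074R replicate 4, where the 22 other G2 and mitosis genes had a median of −1.21. In NeuNT replicate 2 the values were −0.94 and −0.99. By contrast, Top2a stood at 2.54 in NeuNT/H1074R replicate 3, with a list median of 0.33, and its highest partner, Ndc80, was at 0.87. Cdc6 stood at 2.97 there, with a median of 0.20 over 22 replication licensing genes and 0.57 at most, in Cdt1. Cdc6 (0.24) and Top2a (0.01) lay near the medians of their lists, −0.02 and −0.18, in NeuNT/H1074R replicate 1. In NeuNT replicate 1, Cdc6 at −0.22 was below all 22 licensing genes. In NeuNT replicate 4, Cdc6 at 0.42 was above all 22, of which the highest, Mcm5, stood at 0.39.

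**Figure D4:**
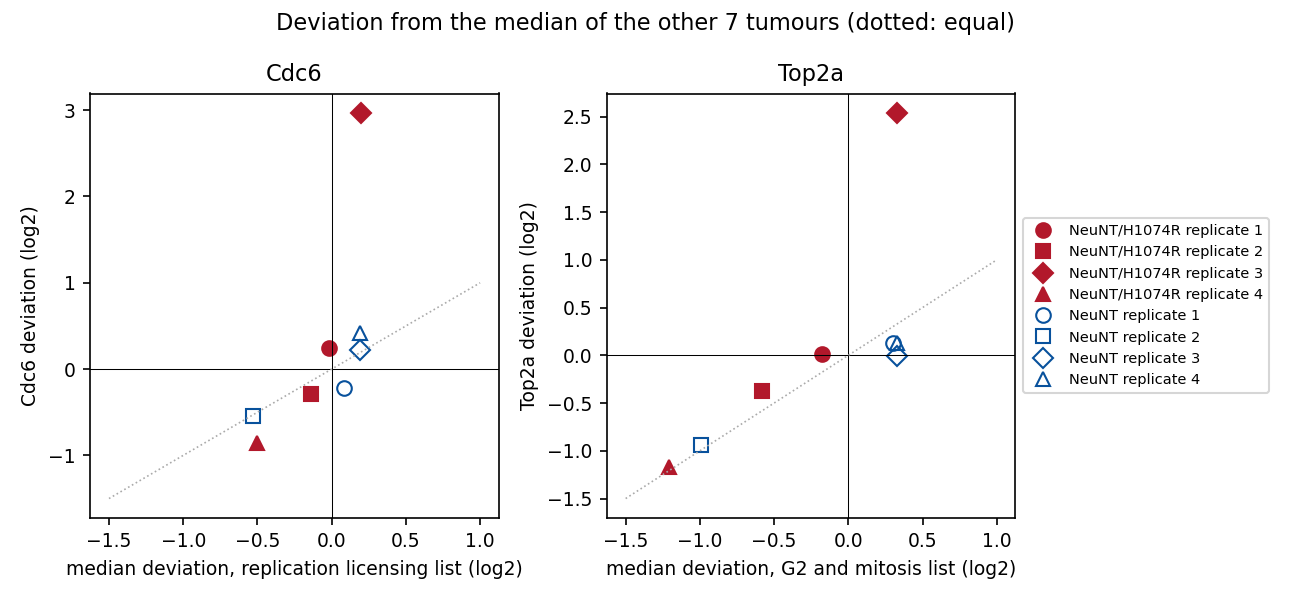
Deviation of Cdc6 (left) and Top2a (right) on the vertical axis against the median deviation of the replication licensing list and of the G2 and mitosis list on the horizontal axis (both log2), 1 point per tumour, filled red for NeuNT/H1074R and open blue for NeuNT, with equality dotted. In both panels NeuNT/H1074R replicate 3 lies far above the dotted line, at 2.97 and 2.54, and the other 7 tumours lie near it.

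The design's own comparison asks whether tumours with mutant p110α differ from those without. The NeuNT/H1074R mean was the higher one for 9 of 9 members, where 49.5% of all tested genes did, and their median log2 difference was 1.01. None of the 9 passed the test (limma with Benjamini-Hochberg adjustment over 16635 genes; 0% of all tested genes passed), 2 had an unadjusted p under 0.05 (3.82% of all tested genes did), and 0 had genotypes that did not overlap (2.69% did, and in 1.59% all NeuNT/H1074R values were the higher ones). The largest difference was that of Wipf2, 8.93 ± 1.42 in NeuNT/H1074R and 7.53 ± 0.21 in NeuNT (SD, n = 4 each), or 1.40 ± 0.61 (SE; limma adjusted p = 0.978). Thra had the smallest unadjusted p among the members, with 7.51 ± 0.77 in NeuNT/H1074R and 6.40 ± 0.35 in NeuNT (SD, n = 4 each), a difference of 1.11 ± 0.37 (SE; limma adjusted p = 0.978). Differences were 1.25 for Msl1, 1.20 for Psmd3, 1.01 for Med24, 0.63 for Rara, 0.54 for Nr1d1, 0.54 for Cdc6 and 0.43 for Top2a, and their 95% intervals all included 0.

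Apart from that of Nr1d1, these differences were smaller or of the other sign without the 2 high tumours. With NeuNT/H1074R replicates 1 and 3 both left out, a fit chosen after the values were seen, the difference was −0.22 for Psmd3, −0.30 for Med24, 0.06 for Msl1, 0.20 for Wipf2, −0.44 for Cdc6, 0.14 for Rara and −0.59 for Top2a. Thra kept 0.46 and Nr1d1 0.55, and none passed (limma, smallest adjusted p among the 9 members 0.727). Without NeuNT/H1074R replicate 3 alone, Cdc6 stood at −0.24 and Top2a at −0.33. Without NeuNT replicate 4 alone, Nr1d1 stood at 0.09.

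**Figure D5:**
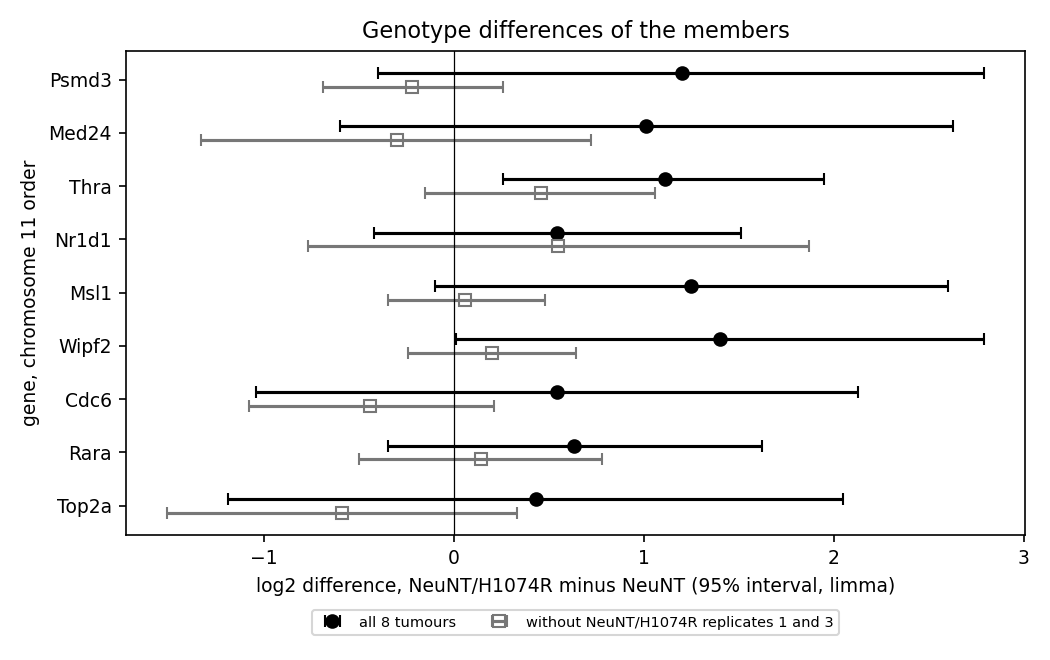
Log2 difference NeuNT/H1074R minus NeuNT with its 95% interval (horizontal axis) for the 9 measured members in chromosome order from top to bottom, over all 8 tumours (filled circles) and without NeuNT/H1074R replicates 1 and 3 (open squares). All filled circles lie right of 0, from 0.43 at Top2a to 1.40 at Wipf2, and 4 of the open squares lie left of it.

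Skeletal muscle markers were high in the same 2 tumours, and Acta1 among them was also high in NeuNT replicate 2 (deviation 2.19). Of 7 such markers 6 were tested, with Mylpf too dim, and their mean log2 level ran from 5.11 to 7.65 in NeuNT/H1074R tumours and from 4.82 to 5.37 in NeuNT tumours. The creatine kinase gene Ckm read 7.58, 5.37, 6.71 and 5.31 in NeuNT/H1074R replicates 1 to 4, against 5.04, 5.12, 4.82 and 5.02 in NeuNT replicates 1 to 4. NeuNT/H1074R replicates 1 and 3 had median deviations of 2.33 and 1.65 over the muscle markers. Over Psmd3, Med24, Thra, Msl1 and Wipf2 the medians were 2.58 and 2.16, and over Cdc6, Rara and Top2a 0.12 and 2.54. The median deviation of 7 basal markers was 0.31 and 1.55 in these tumours and highest, 2.34, in NeuNT replicate 2. Among them the keratins Krt17 (5.64 and 5.38) and Krt14 (4.50 and 3.74) and the basal regulator Trp63 (1.54 and 1.55) were high in both NeuNT/H1074R replicates 1 and 3. Each was also above 2 in NeuNT replicate 4, at 3.96, 4.05 and 2.33. In NeuNT replicate 2, Trp63 stood at 2.34, Krt14 at 1.38 and Krt17 at 0.57. Krt17 also lies on chromosome 11, further along past Top2a. Between NeuNT/H1074R replicates 1 and 3, the remaining basal markers were high in replicate 3 only. Deviations were 0.31 and 1.02 for Acta2, 0.05 and 2.23 for Cnn1, −0.05 and 1.17 for Myh11 and −0.66 and 1.0 for Oxtr. These markers were higher still in NeuNT replicate 2, at 2.05, 5.34, 4.33 and 2.71. The 9 squamous markers had medians of 0.95 and 0.15 in NeuNT/H1074R replicates 1 and 3, and their highest median, 4.03, in NeuNT replicate 4. Among them, Krt6a had a deviation of 4.94 in NeuNT/H1074R replicate 1 and of 4.61 in replicate 3. It was also high in NeuNT replicate 4 (6.84) and NeuNT replicate 3 (3.87). In NeuNT/H1074R replicate 3, Krtdap (2.12) and Krt10 (1.29) were high as well, whereas Krt71 (−1.17), Lor (−0.6) and Krt35 (−0.02) were negative. The part of other cell types in the members' values was not tested beyond this.

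The 10 tested genes whose profile over the 8 tumours was most like the mean deviation of the members, by Pearson correlation, split the same way. Ppm1j came first (r = 0.989), with deviations of only 0.35 and 0.51 in NeuNT/H1074R replicates 1 and 3. Muscle genes followed, among them the giant sarcomere proteins Neb (r = 0.975) and Ttn (r = 0.967), Des, Trdn, Ankrd23 and Myh1. Hap1 (r = 0.964) lies on chromosome 11, further along past Top2a, and had 8.41, 5.91, 8.42 and 6.04 in NeuNT/H1074R replicates 1 to 4, against 6.07, 6.30, 5.76 and 6.06 in NeuNT replicates 1 to 4. Pex14 and the pseudogene Eif1-ps3 complete the list. These likenesses are across 8 tumours, share the same 2 high ones and are given as a description.

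Of the lists of partner genes, none had a member that passed between genotypes. The proteasome cap had 5 genes higher and 14 lower in NeuNT/H1074R tumours, Mediator 11 and 18, replication licensing 5 and 17, the clock genes 9 and 7, and the 22 G2 and mitosis genes 0 and 22, with a median log2 difference of −0.30. Psmc4, an ATPase of the cap, differed by −0.33, Med27 by −0.37, the helicase cofactor Cdc45 by −0.40, the mitotic spindle gene Nusap1 by −0.41, Aurkb by −0.46 and the clock repressor Bhlhe40 by 0.46, all with a limma adjusted p of 0.978. The retinoid receptor Rxrg differed by 0.69 and the actin regulator Wipf1 by −0.55, with the same adjusted p. Over all tested genes 8229 were higher and 8406 lower.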

How the data were processed

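Total RNA of 8 tumours was hybridised to Affymetrix whole-transcript arrays. The authors deposited log2 values of 41345 probes in 1 table with 8 columns. Affymetrix Expression Console and Transcriptome Analysis Console are named in the submitters' processing notes, without settings for background correction or normalization. The log2 scale was read from the values, which ran from 0.887 to 13.6, with array medians of 4.81 to 4.87. Precision is limited by the number of arrays.

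Probes were named from the platform annotation: 23521 carry 1 gene symbol, 1814 several and 16010 are not listed. Each of 22180 genes was represented by its brightest probe. Genes with a mean in the lowest 25%, under 4.06, were left out as dim. Gene order came from RefSeq (GRCm38.p6); since no source used here names the build behind the array, RefSeq gene coordinates are not printed.

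Genotypes were compared with limma 3.58.1 in R 4.3.3 (eBayes with an intensity trend, two-sided, Benjamini-Hochberg over all tested genes, threshold 0.05), as NeuNT/H1074R minus NeuNT. Deviations and steps are descriptions with no test. Alternatives changed the scaling, the dim filter, the probe rule, the variance model, the tumours compared and the size of a step. Replicates were numbered within a genotype in accession order. The members, gene lists and tests were chosen with earlier results of these data known. The genes named are the members, Erbb2 and genes near it, the 10 of highest likeness, and 1 or 2 of smallest unadjusted p from several partner lists; Hap1's neighbours, Ndc80, Cdt1, Per1, Med1, Thrsp, Stra6 and the single cell type markers were chosen after their values were seen. Plots were drawn with matplotlib 3.10.9.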

Additional observations from a re-analysis of the deposited data

Results flagged for a closer look

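In 10 of 60 groups of 4 tumours a single tumour's gap to its nearest neighbour took up more of the group's range than Dixon's 95% critical value for 4 samples, a size that chance gives in about 1 of 20 groups. Members made up 18 of the 60 groups and 4 of the 10. NeuNT/H1074R replicate 3 stood apart within its genotype for Rara, at 9.46, for Smarce1, at 9.35, and for Tcap, a muscle gene near Erbb2, at 6.06. NeuNT replicate 4 stood apart for Nr1d1, at 7.75, and for the keratins Krt25, at 9.13, and Krt10, at 9.26. NeuNT replicate 2 stood apart for Top2a, at 6.74, for Mien1, a gene next to Erbb2, at 9.92, and for Tcap, at 5.29. NeuNT replicate 1 was the low tumour for Psmd3, at 7.91, though the range of the NeuNT tumours was small there.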

How the results depend on the processing

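No gene of the whole array passed between genotypes under any of the 16 alternatives (limma; 373 to 1107 genes had an unadjusted p under 0.05), and the members' differences kept their side of the threshold in all of them. Their direction turned in 6 cases, all without NeuNT/H1074R replicate 3. With single tumours left out, Psmd3 ran from 0.71 to 1.69, Med24 from 0.54 to 1.47, Cdc6 from −0.24 to 0.96 and Top2a from −0.33 to 0.90. Without NeuNT/H1074R replicates 1 and 3 together Psmd3 was −0.22, Med24 −0.30, Cdc6 −0.44 and Top2a −0.59. The members' high deviations in NeuNT/H1074R replicates 1 and 3 stayed at 1 or more in every alternative, while that of Med24 in NeuNT replicate 2 ran from 0.54 to 1.34. With the mean of the other tumours in place of the median, which the 2 high tumours pull up, the median deviation over the members was −0.56, −0.50, −0.52 and −0.90 in NeuNT replicates 1 to 4. Against the same genotype alone it was −1.17 in both NeuNT/H1074R replicates 2 and 4, 0.13 in NeuNT replicate 1 and 0.32 in NeuNT replicate 2, and with single tumours left out it ran from −0.06 to 0.10 in NeuNT replicate 2. A smaller step size of 0.3 gave 4 steps in NeuNT/H1074R replicate 2 and 5 in NeuNT replicate 3. A step size of 1 left 3 steps in NeuNT/H1074R replicate 3, 1 in NeuNT/H1074R replicate 4, and 0 in NeuNT replicates 1 and 3. Against the same genotype, NeuNT/H1074R replicates 2 and 4 had 4 and 6 steps. No paired analysis was possible because the labels give the tumours of the 2 genotypes no shared numbers.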

Other observations

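A further run of genes on chromosome 11, from Hap1 to P3h4 past Top2a, was high in NeuNT/H1074R replicates 1 and 3. It also ended at different places and was noticed after the values were seen. Of the 46 tested genes between Top2a and Hap1, 12 had a deviation of at least 1 in NeuNT/H1074R replicate 1 (2.02% of all tested genes). There were 14 in NeuNT/H1074R replicate 3 (2.01%) and 0 in replicates 2 and 4 (1.29% and 1.51%). They include keratin genes. NeuNT replicates 1 to 4 had 7, 4, 1 and 26 of the 46 (1.56%, 4.44%, 2.65% and 3.55%). Over the 46 the median deviation was 0.35 and 0.17 in NeuNT/H1074R replicates 1 and 3, against 2.01 in NeuNT replicate 4. Hap1 had deviations of 2.35 and 2.36 in NeuNT/H1074R replicates 1 and 3. Jup, which encodes the junction protein plakoglobin, stood at 1.60 and 1.64 in the same tumours, and P3h4 at 2.43 and 1.58. The next gene, Nt5c3b, stood at 2.44 in NeuNT/H1074R replicate 1 and −0.17 in NeuNT/H1074R replicate 3, and Klhl10 after it at 0.54 and −0.26. In the other 6 tumours the deviations of Hap1, P3h4 and Nt5c3b lay between −0.88 and 0.36. Gast, directly before Hap1, stood at 0.28 and −0.07.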
